A study of Homo sapiens with 6 samples.

Results

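The genes examined here are 10 genes of microRNA processing and Argonaute function: DROSHA, DGCR8, XPO5, DICER1, TARBP2, PRKRA, AGO1, AGO2, AGO3 and TNRC6A. They were chosen by name, by a rule that uses no measured value, because DDX5, the gene silenced in these cells, is a known cofactor of the nuclear microRNA processing complex. Earlier results of these data were known when the genes were chosen. They are 10 of the 35580 genes that a transcript in the tables could be joined to, and all 10 passed the filter on low counts that left 15223 genes for testing. Messenger RNA was sequenced from Rh30, a line of alveolar rhabdomyosarcoma cells with a PAX3-FOXO1 fusion. There were 2 groups of 3 libraries, cells labelled with DDX5 knock-down (siDDX5) and cells labelled control. All 6 libraries are from this 1 cell line, neither the treatment of the control cells nor the time after knock-down is given in the labels, and small RNAs were not analysed here, so the values below are of the messenger RNAs of the machinery and not of microRNAs.

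MicroRNAs are cut out of long primary transcripts in steps. In the nucleus the Microprocessor, made of the RNase III enzyme DROSHA and its RNA-binding partner DGCR8, frees a hairpin, and the helicases DDX5 and DDX17 associate with it and assist the processing of some primary transcripts. Exportin-5 (XPO5) carries the hairpin to the cytoplasm, where DICER1, with the RNA-binding partners TARBP2 and PRKRA, removes the loop. An Argonaute protein keeps one strand as a guide, and a GW182 protein such as TNRC6A links it to the enzymes that shorten and repress the target mRNA.

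The libraries held 18202402 to 26156858 estimated counts, and every siDDX5 library (at most 19971888) was shallower than every control library (at least 21265569), so depth and group cannot be told apart. The knock-down was checked first. DDX5 was at 1352, 1434 and 1137 CPM (TMM-normalised counts scaled to a common library total) in control replicates 1, 2 and 3 and at 549, 504 and 396 CPM in the siDDX5 replicates, a log2 fold change of -1.44 ± 0.15 (SE, adjusted p in edgeR 0.0106), so the level and the labels pointed the same way in all 6 libraries. Without control replicate 1, siDDX5 replicate 1 or siDDX5 replicate 2 the edgeR adjusted p was 0.0953, 0.0653 and 0.0531. The myogenic genes MYOD1 (147 to 226 CPM), MYOG (78.7 to 199 CPM) and DES (381 to 619 CPM) were expressed in every library. Of the 10 markers of epithelial, immune and endothelial cells, EPCAM, KRT18, CD3E, LYZ and CDH5 did not pass the filter on low counts. CDH1, KRT8, PTPRC and VWF stayed at or below 2.64 CPM in every library, and PECAM1 lay between 10.3 and 14.8 CPM. CDH1 was at 1.32 to 2.04 CPM in control and 2.17 to 2.64 CPM in siDDX5 cells, and its part in any result was not tested.

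At the level of whole genes, none of the 10 changed past the threshold. In edgeR's quasi-likelihood test 0 of 10 had a Benjamini-Hochberg adjusted p under 0.05, where 0.164% of all genes tested did, and the members' adjusted p ran from 0.42 to 0.968. At an unadjusted p under 0.05 there was 1 of 10, TNRC6A, against 11.4% of all genes. Same-numbered libraries deviated together, and when that number was added to the model as a block 0 of 10 passed again (2.59% of all genes did), with 3 of 10 (PRKRA, TNRC6A and DROSHA) at an unadjusted p under 0.05 against 20.5% of all genes. The DESeq2 Wald test also called 0 of 10, where it called 2.99% of the genes it gave an adjusted p, with 1 of 10 at an unadjusted p under 0.05 against 10.8%. The log2 fold changes of the 10 genes lay between -0.22 (DROSHA) and 0.29 (TNRC6A), with 6 above and 4 below 0 and a median of 0.07, beside a median of 0.00 over all genes. Their standard errors were 0.10 to 0.16, and a p that misses the threshold does not show that a level was the same. In such bulk libraries, fewer cells of a type and less RNA per cell cannot be told apart. In 2 of 10, XPO5 and PRKRA, every siDDX5 library was higher than every control library, where 18.0% of all genes had groups that did not overlap and 8.87% had siDDX5 above. On the TPM scale (scaled for transcript length) the groups overlapped for all 10, where 14.6% of all genes had groups that did not. The fold changes of TNRC6A, PRKRA and XPO5 were smaller there, at 0.12, 0.14 and 0.08 with counts from length-scaled TPM and 0.07, 0.09 and 0.03 in limma-trend on log2(TPM + 1), and that of DROSHA was -0.07 and -0.12. The labels call the replicates biological, and the p-values measure the spread between these libraries only.

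**Figure D1:**
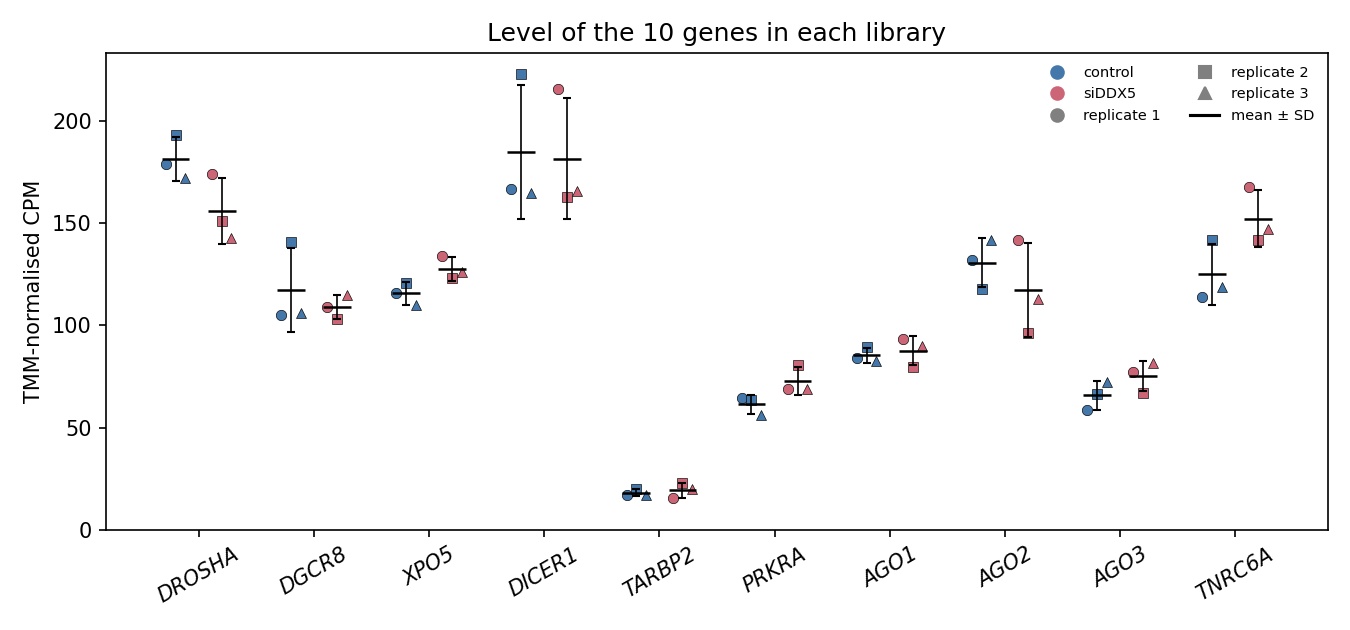
Level of each of the 10 genes in TMM-normalised CPM (y axis) in the 3 control (blue) and 3 siDDX5 (red) libraries, with a marker shape for each replicate number and the mean ± SD in black. On this scale the groups overlap for 8 genes and do not for XPO5 and PRKRA, whose siDDX5 libraries are the higher ones.

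**Figure D2:**
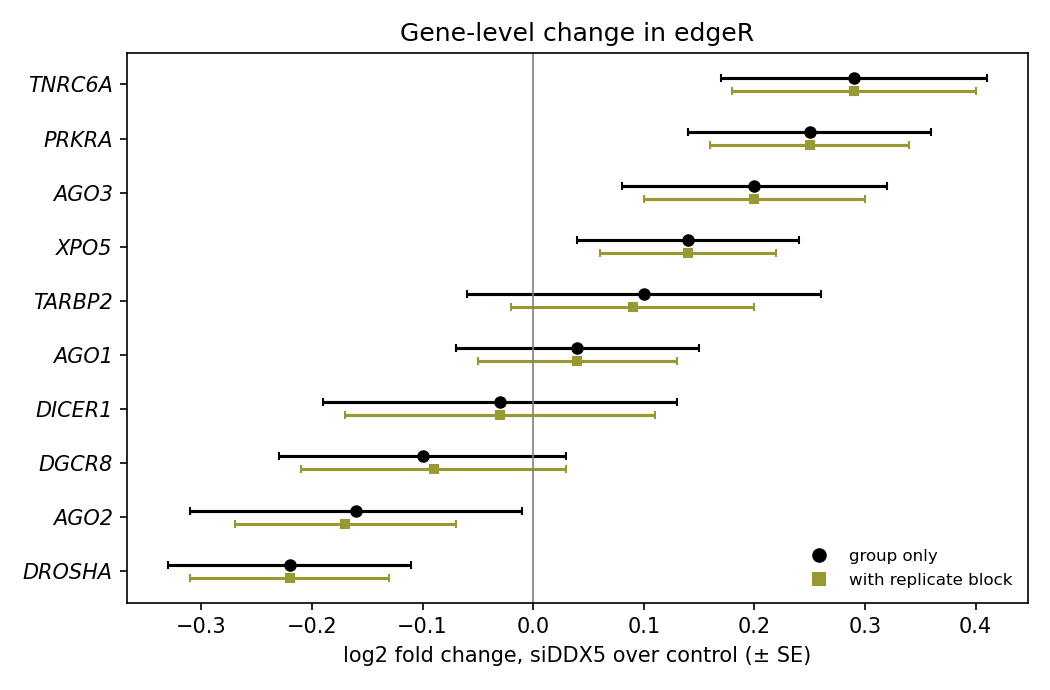
Log2 fold change of siDDX5 over control for each gene in edgeR, ± 1 standard error, with the group as the only term (black circles) and with the replicate block (olive squares), ordered by size. The estimates run from -0.22 for DROSHA to 0.29 for TNRC6A, and the block narrows the errors without moving a gene to the other side of 0.

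DROSHA (ENSG00000113360.16), the RNase III enzyme of the Microprocessor, is a gene of chromosome 5 (GRCh38, 31400497 to 31532196, minus strand). It was measured at 179, 193 and 172 CPM in control replicates 1, 2 and 3 and 174, 151 and 143 CPM in siDDX5 replicates 1, 2 and 3. Replicate 1 of siDDX5 lay among the control libraries, and the other 2 siDDX5 libraries lay below all of them. The means were 181 ± 10.7 and 156 ± 15.9 CPM (SD, n = 3 each), with a log2 fold change of -0.22 ± 0.11 (SE, adjusted p in edgeR 0.497, 0.222 with the replicate block). This was the lowest fold change among the 10 genes.

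The counts of DROSHA were spread over 21 annotated transcripts, of which 11 could be tested. DROSHA-220 (ENST00000513349.5) was the most abundant, with 58.8% ± 3.02 of the gene's counts in control and 54.0% ± 0.92 in siDDX5 cells (SD, n = 3 each). DROSHA-212 (ENST00000511367.6) came next, with 30.9% ± 2.43 and 28.0% ± 6.55 (SD, n = 3 each). Both are annotated protein coding, with 4011 and 4122 coding bases, and differ in a cassette exon of 111 bases, or 37 codons, that DROSHA-212 holds as its exon 6 and DROSHA-220 skips without a shift of the reading frame. The exon lies on chromosome 5 at positions 31515454 to 31515564. The exon and the junction formed when it is skipped are printed here because they are the only part of the coding sequence in which these main transcripts differ. They were read from the GENCODE 29 transcripts (GRCh38, minus strand, 5′ to 3′). In the first line the capitals mark the exon between 20 bases of each neighbouring exon, and in the second the capitals mark the start of the exon that follows when it is skipped.
DROSHA cassette exon with flanks: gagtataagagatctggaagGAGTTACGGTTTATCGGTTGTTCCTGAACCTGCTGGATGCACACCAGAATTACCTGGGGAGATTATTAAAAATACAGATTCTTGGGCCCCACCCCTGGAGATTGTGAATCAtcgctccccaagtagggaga
DROSHA skipping junction: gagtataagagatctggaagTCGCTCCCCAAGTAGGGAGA

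**Figure D3:**
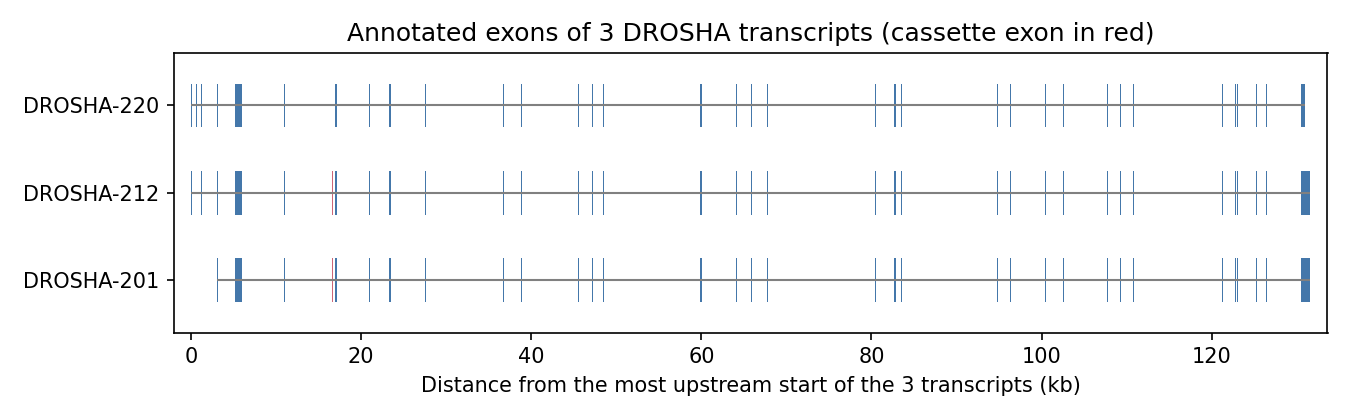
Annotated exons (boxes) of DROSHA-220, DROSHA-212 and DROSHA-201, drawn to scale (each at least 0.12 kb wide) along the gene from 5′ to 3′ as the distance in kb from the most upstream start of the 3, with the cassette exon in red. DROSHA-212 and DROSHA-201 hold the red exon and DROSHA-220 does not, and DROSHA-201 lacks the 2 exons at the 5′ end of DROSHA-212.

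The share of counts on the coding transcripts that hold this exon was computed against those that skip it, a measure chosen after the data had been seen. The main transcripts also differ outside this exon. By annotation DROSHA-220 ends at position 31401134 and DROSHA-212 at 31400497, and 124 bases of DROSHA-220 are absent from DROSHA-212. The share is of whole-transcript counts, and how much of it came from reads over the exon was not tested. It was 32.4%, 37.7% and 37.6% in control replicates 1, 2 and 3, from 3762 to 4243 counts per library, and 39.6%, 40.9% and 40.4% in the siDDX5 replicates, from 2388 to 3154 counts. The siDDX5 values were all higher than the control values, and control replicate 1 was the lowest. For how many other genes a share of this kind separates the groups was not counted. The means were 35.9% ± 3.01 and 40.3% ± 0.69 (SD, n = 3 each), a difference of 4.39 percentage points, or 2.65 without control replicate 1. The two-sided exact permutation p was 0.1, the smallest that 3 against 3 libraries can give. Computed from TPM, the means were 42.9% and 48.1%, again with an exact permutation p of 0.1.

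DROSHA was also the only one of the 10 genes called for relative transcript usage. The Simes adjusted p was 0.0303 (edgeR diffSpliceDGE) and 0.00505 with the replicate block, where 1.59% and 1.21% of the 10704 genes tested were called. The call came from another transcript, DROSHA-201 (ENST00000344624.7), with 23.8, 2.66 and 77.5 estimated counts in control replicates 1, 2 and 3 and 69.6, 117 and 383 in the siDDX5 replicates. That is 0.515%, 0.0638% and 1.86% of the gene's counts against 1.98%, 4.2% and 14.7%, so the lowest siDDX5 library lay just above the highest control library. By annotation, 1 of the 5102 bases of DROSHA-201 is absent from DROSHA-212, which has 2 more exons at its 5′ end and the same number of coding bases. In siDDX5 replicate 3, where DROSHA-201 took 14.7%, DROSHA-212 took 20.4%, against 28.1% to 32.6% in the other 5 libraries. When DROSHA-201 and DROSHA-212 were counted as 1 transcript, an alternative added after the data had been seen, DROSHA was not called (Simes adjusted p 1.0, unadjusted 0.882, in edgeR). The call was also lost without control replicate 1 (edgeR Simes adjusted p 0.272), without control replicate 2 (0.35) and without siDDX5 replicate 3 (1.0), and when only transcripts averaging 50 or more counts were tested (0.223).

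**Figure D4:**
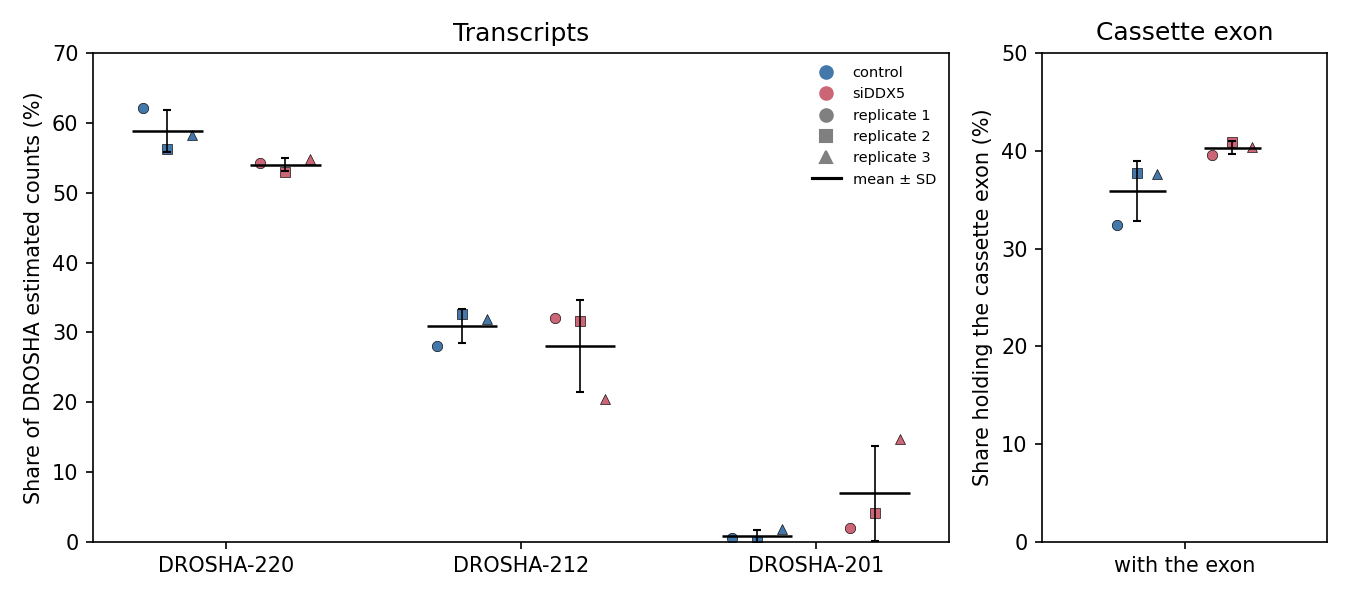
Left, share of DROSHA estimated counts in percent on 3 transcripts in each control (blue) and siDDX5 (red) library, and right, share of coding transcripts that hold the cassette exon, with the mean ± SD in black. DROSHA-201 reaches 14.7% in siDDX5 replicate 3, the library in which DROSHA-212 is lowest at 20.4%, while the share with the exon is 39.6% to 40.9% in all siDDX5 libraries.

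DGCR8 (ENSG00000128191.15), the RNA-binding partner of DROSHA, lies on chromosome 22 at positions 20080232 to 20111877, on the plus strand. It was measured at 105, 141 and 106 CPM in control replicates 1, 2 and 3 and 109, 103 and 115 CPM in the siDDX5 replicates. Control replicate 2 stood above the other 5 libraries, which lay within 103 to 115 CPM. The log2 fold change was -0.10 ± 0.13 (SE, adjusted p in edgeR 0.814, 0.704 with the replicate block), and without control replicate 2 it was 0.06.

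The DGCR8 mRNA carries microRNA hairpins in its own sequence, and as background it is known to be cut by the Microprocessor, which lowers DGCR8 in a feedback loop. The mature sequences that RefSeq (GRCh38.p14) places in exon 2 of DGCR8-201 are printed here because they mark where the hairpins lie in the measured transcripts. Capitals mark the seed, bases 2 to 8. The first lies in the 5′ UTR at positions 20085797 to 20085818, and the other pair, the arms of a single hairpin, in the coding sequence at 20086072 to 20086093 and 20086112 to 20086129. The 3 seeds differ from one another.
hsa-miR-3618: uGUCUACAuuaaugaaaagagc
hsa-miR-1306-5p: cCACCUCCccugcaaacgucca
hsa-miR-1306-3p: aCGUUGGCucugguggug

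The hairpin of miR-3618 is held by 3 annotated DGCR8 transcripts and the miR-1306 stretch by 5. Transcripts with the miR-3618 hairpin took 53.0%, 40.9% and 54.3% of DGCR8 counts in control and 50.1%, 49.2% and 55.8% in siDDX5 cells, means of 49.4% ± 7.4 and 51.7% ± 3.56 (SD, n = 3 each, two-sided exact permutation p 0.8). Transcripts with the miR-1306 stretch took 67.1% ± 3.03 and 69.1% ± 2.91 (SD, n = 3 each, exact permutation p 0.5). The groups overlapped for both hairpins. The protein-coding DGCR8-201 held 46.9% ± 7.87 and 49.5% ± 3.05 of the counts, and the retained-intron transcripts DGCR8-210 and DGCR8-209 held 20.4% ± 1.51 and 17.5% ± 4.56 in control against 21.4% ± 1.96 and 16.6% ± 1.42 in siDDX5 cells (SD, n = 3 each). Exons of DGCR8 share 12 bases with TRMT2A on the opposite strand, which had a log2 fold change of -0.05.

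XPO5 (ENSG00000124571.17), the exporter of precursor hairpins, lies on chromosome 6 at positions 43522330 to 43576075, on the minus strand. It was measured at 116, 121 and 110 CPM in control cells and 134, 123 and 126 CPM in siDDX5 replicates 1, 2 and 3. Every siDDX5 library was higher than every control library, with 123 against 121 CPM at the closest. The log2 fold change was 0.14 ± 0.10 (SE, adjusted p in edgeR 0.62, 0.378 with the replicate block). A single transcript, the protein-coding XPO5-201, carried 92.6% ± 1.69 of the counts in control and 93.5% ± 0.919 in siDDX5 cells (SD, n = 3 each). Exons of XPO5 share 348 bases (4.08% of its exon bases) with POLR1C on the opposite strand. POLR1C was counted at a mean of 599.6 per library and had a log2 fold change of 0.26. Its part in the XPO5 values was not tested. The library kit keeps strand, but whether the counting used it is not given in the sources used here.

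DICER1 (ENSG00000100697.14), the cytoplasmic RNase III enzyme, lies on chromosome 14 at positions 95086228 to 95158010, on the minus strand. It was at 167, 223 and 165 CPM in control cells and 216, 163 and 166 CPM in siDDX5 cells. One library of each group, control replicate 2 and siDDX5 replicate 1, stood well above the other 4, which lay within 163 to 167 CPM. The log2 fold change was -0.03 ± 0.16 (SE, adjusted p in edgeR 0.968, 0.941 with the replicate block), and its sign turned to 0.13 without control replicate 2 and to 0.04 without siDDX5 replicate 2 or 3. DICER1-202 carried most of the counts, 65.1% ± 9.75 in control and 75.7% ± 11.3 in siDDX5 cells (SD, n = 3 each). Without siDDX5 replicate 1 alone, DICER1 was called for transcript usage (edgeR Simes adjusted p 3.32e-05), where all 6 libraries gave 1.0.

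The partners of DICER1 were measured at different levels. TARBP2 (ENSG00000139546.10, chromosome 12, 53500921 to 53506431, plus strand) had the lowest CPM of the 10 genes, 16.8, 20 and 17.2 in control and 15.3, 22.7 and 20 in siDDX5 cells. The siDDX5 libraries held both the lowest and the highest value, and the log2 fold change was 0.10 ± 0.16 (SE, adjusted p in edgeR 0.857), or -0.03 without siDDX5 replicate 2. Its 20 annotated transcripts shared the counts widely, and the most abundant, TARBP2-201, took 18.8% ± 9.6 and 23.0% ± 6.14 (SD, n = 3 each).

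PRKRA (ENSG00000180228.12, chromosome 2, 178431414 to 178451512, minus strand), also known as PACT, was at 64.7, 63.5 and 55.9 CPM in control cells and 68.7, 80.6 and 69.1 CPM in siDDX5 cells. Every siDDX5 library was higher than every control library. The means were 61.4 ± 4.75 and 72.8 ± 6.73 CPM (SD, n = 3 each), with a log2 fold change of 0.25 ± 0.11 (SE, unadjusted p in edgeR 0.0551, adjusted p 0.453, 0.166 with the replicate block). The protein-coding PRKRA-201 (ENST00000325748.9) took 73.7%, 66.5% and 73.4% of the counts in control and 78.2%, 78.4% and 78.4% in siDDX5 cells. Its level had a log2 fold change of 0.42 ± 0.13 (SE, unadjusted p in edgeR 0.0168, adjusted p 0.626 over all transcripts). Exons of PRKRA share 132 bases (3.35%) with PJVK on the opposite strand. PJVK was counted at a mean of 77.0 per library and had a log2 fold change of 0.26. Its part in the PRKRA values was not tested.

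Among the Argonaute genes, AGO1 and AGO3 are neighbours on chromosome 1. AGO1 (ENSG00000092847.11, 35869808 to 35930528, plus strand) was at 83.9, 89.6 and 82.5 CPM in control cells and 93.3, 79.5 and 89.9 CPM in siDDX5 cells, a log2 fold change of 0.04 ± 0.11 (SE, adjusted p in edgeR 0.925). The siDDX5 libraries again held both extremes, and the sign turned to -0.12 with counts from length-scaled TPM. AGO1-202 is the shorter of 2 annotated coding transcripts (3996 bases against 13712 for AGO1-201). It took 9.91% ± 1.54 of the counts in control and 2.79% ± 2.98 in siDDX5 cells (SD, n = 3 each). The siDDX5 replicates 1, 2 and 3 were at 5.93%, 0.0% and 2.45%, all below the control libraries. How often the shares of other transcripts separate like this was not counted. The gene was not called for usage (edgeR Simes adjusted p 1.0).

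AGO3 (ENSG00000126070.19, 35930718 to 36072500, plus strand) was at 58.4, 66.6 and 72.3 CPM in control cells and 77.0, 67.0 and 81.8 CPM in siDDX5 cells. One siDDX5 library lay inside the control range and 2 above it. The log2 fold change was 0.20 ± 0.12 (SE, adjusted p in edgeR 0.584, 0.289 with the replicate block), but -0.04 in limma-trend on log2(TPM + 1), so its direction depended on the scale. The long coding transcript AGO3-203 took 78.7% ± 2.65 and 84.1% ± 2.4 of the counts (SD, n = 3 each).

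AGO2 (ENSG00000123908.11, chromosome 8, 140520156 to 140635619, minus strand) encodes the Argonaute that can itself cut a target. It was at 132, 118 and 142 CPM in control cells and 142, 96.5 and 113 CPM in siDDX5 cells. Replicate 1 of siDDX5 was level with the highest control library and the other 2 lay below the control range. The log2 fold change was -0.16 ± 0.15 (SE, adjusted p in edgeR 0.735, 0.393 with the replicate block). It was -0.32 without siDDX5 replicate 1 and -0.04 without siDDX5 replicate 2. One transcript, AGO2-201, held 97.8% ± 0.34 and 98.7% ± 0.411 of the counts (SD, n = 3 each).

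TNRC6A (ENSG00000090905.18), the GW182 protein that joins Argonaute to the deadenylases, lies on chromosome 16 at positions 24610209 to 24827632, on the plus strand. It was at 114, 142 and 119 CPM in control cells and 168, 142 and 147 CPM in siDDX5 cells. Control replicate 2 and siDDX5 replicate 2 met at 142 CPM, and the other siDDX5 libraries lay above every control library. The means were 125 ± 15.1 and 152 ± 14.0 CPM (SD, n = 3 each), with a log2 fold change of 0.29 ± 0.12 (SE, unadjusted p in edgeR 0.0419, adjusted p 0.42, 0.194 with the replicate block). It was 0.21 to 0.39 without one library, and the unadjusted p in edgeR was 0.489 with counts from length-scaled TPM. Most of it was TNRC6A-201, which took 85.1% ± 1.61 and 83.0% ± 2.21 of the counts (SD, n = 3 each).

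Of the 71 transcripts of the 10 genes that could be tested, edgeR called 0 without and with the block (0.0% of the 61167 transcripts tested were called in either fit). At an unadjusted p under 0.05 there were 5 of 71 (7.04%), beside 7.09% of all transcripts, and also 5 with the block, beside 7.97%. The smallest belonged to TNRC6A-207 (ENST00000491718.5), annotated as a target of nonsense-mediated decay, with 72.1, 101 and 86.7 counts in control and 187, 154 and 131 in siDDX5 cells. Every siDDX5 library lay above every control library in these counts, which are not scaled for depth. The transcript was named for its small p, and how often other transcripts separate like this was not counted. Its share of TNRC6A counts was 2.92% ± 0.417 and 5.43% ± 0.492 (SD, n = 3 each), and its log2 fold change was 1.21 ± 0.25 (SE, adjusted p in edgeR 0.368, 0.622 with the replicate block). The DESeq2 Wald test called this 1 transcript of the 71 (1.41%), beside 1.34% of all transcripts.

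The share of each gene's counts on transcripts not annotated protein coding (retained introns, decay targets and processed transcripts) differed widely between the genes. TARBP2 and DGCR8 had the highest shares, 53.6% ± 3.01 and 50.5% ± 7.58 in control and 47.4% ± 5.62 and 47.5% ± 3.38 in siDDX5 cells (SD, n = 3 each). PRKRA followed with 23.8% ± 3.2 and 17.3% ± 1.66 (SD, n = 3 each). DICER1, AGO1 and AGO2 had means below 2% in both groups, beside 10.3% to 12.6% per library over all tested genes. The siDDX5 libraries lay below all control libraries for PRKRA, AGO3 (12.1% ± 0.455 to 8.83% ± 3.11) and AGO2 (1.79% ± 0.299 to 1.03% ± 0.313), and above them for TNRC6A (8.61% ± 0.366 to 9.75% ± 0.373, SD, n = 3 each). For these 4 genes the two-sided exact permutation p was 0.1, the smallest possible, and 0.25 adjusted over the 10 genes. Over all genes in which this share could be compared, 13.4% had groups that did not overlap. For AGO3 the siDDX5 libraries were at 10.7%, 10.6% and 5.25%, so replicate 3 stood well below the others. For the other 6 genes the groups overlapped.

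**Figure D5:**
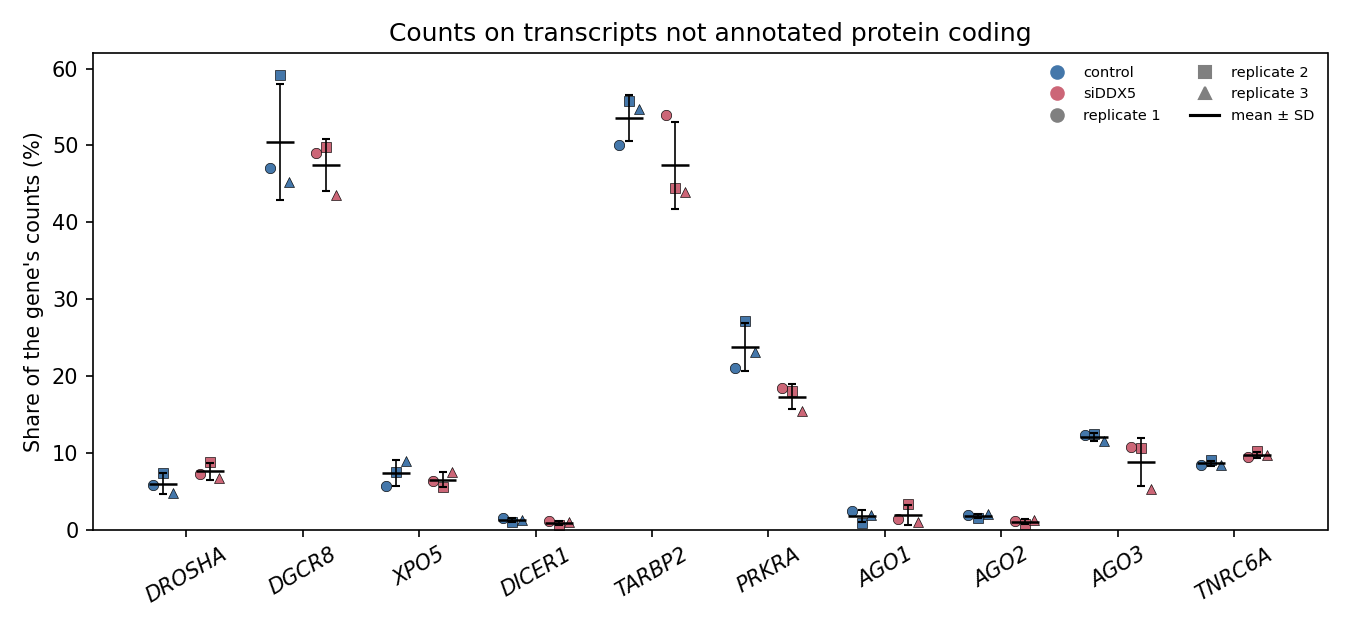
Share of each gene's estimated counts, in percent, on transcripts not annotated protein coding, in the 3 control (blue) and 3 siDDX5 (red) libraries with the mean ± SD in black. TARBP2 and DGCR8 stand near 50.5% or 53.6% in control cells, and the siDDX5 libraries of PRKRA lie below its control libraries.

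Levels were compared between genes on the TPM scale, which is scaled for transcript length. DROSHA had the highest level (113 ± 11.5 TPM in control and 105 ± 19.5 in siDDX5 cells) and AGO1 the lowest (11.9 ± 0.476 and 10.6 ± 1.83, SD, n = 3 each). Over the 6 libraries the mean levels ran from DROSHA (109 TPM) and PRKRA (100) through DGCR8 (56.9), TNRC6A (54.4), XPO5 (49.5) and DICER1 (47.0) to AGO2 (25.9), TARBP2 (22.9), AGO3 (18.8) and AGO1 (11.3). Between neighbours in this order the ranges were apart at only 3 places, PRKRA above DGCR8, DICER1 above AGO2 and AGO3 above AGO1, and the other neighbours overlapped. Counting protein-coding transcripts alone lowered DGCR8 to 23.4 ± 3.32 TPM in control cells, TNRC6A to 24.6 ± 2.76 and TARBP2 to 9.4 ± 0.42. There DROSHA, at 67.4 ± 3.05, and PRKRA, at 54.7 ± 4.33, remained the highest, and DICER1 came next at 41.2 ± 6.92. The order of the lowest genes was not kept. AGO1 (11.2 ± 0.714) was above AGO3 (9.79 ± 1.26) in control cells. In siDDX5 cells it was below AGO3 (9.86 ± 2.1 against 10.2 ± 2.27, SD, n = 3 each).

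The rest of the pathway was read from a list of 58 other genes, of which LIN28B and TRIM71 did not pass the filter on low counts. Of the 56 tested, edgeR called 0 without and with the block (0.164% and 2.59% of all genes). At an unadjusted p under 0.05 there were 8 (14.3%), 4 higher and 4 lower, beside 11.4% of all genes (5.37% higher and 6.0% lower), and the median log2 fold change was 0.07. The 6 with the smallest p did not share a direction. ZSWIM8, part of a ubiquitin ligase that acts in target-directed microRNA decay, had 65.0 ± 2.04 CPM in control cells and 51.7 ± 4.23 CPM after knock-down (SD, n = 3 each), with a log2 fold change of -0.33 ± 0.10 (SE, adjusted p in edgeR 0.273, 0.087 with the block). DIS3L2, an exonuclease that degrades tailed precursors, and NCBP1, the large subunit of the nuclear cap-binding complex, had log2 fold changes of -0.31 and -0.27 (edgeR adjusted p 0.375 and 0.333). IPO8, an importin linked to Argonaute, DDX17, the paralog of DDX5, and SRRT (ARS2), which joins the cap-binding complex to the Microprocessor, had 0.28, 0.26 and 0.22 (edgeR adjusted p 0.313, 0.405 and 0.416). The groups did not overlap in each of these 6 genes, which were named for their small p, and in 12 of the 56 (7 with siDDX5 above and 5 below), beside 18.0% of all genes.

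DDX17, the paralog of DDX5, was the pathway gene that changed when protein-coding transcripts were counted alone, with a log2 fold change of 0.76 ± 0.10 (SE, adjusted p in edgeR 0.0266, 0.016 with the replicate block, where 0.289% and 1.81% of all genes were called). Its annotated retained-intron transcript DDX17-201 took 33.7%, 37.4% and 40.0% of DDX17 counts in control replicates 1, 2 and 3 and 16.9%, 13.1% and 15.2% in the siDDX5 replicates. The usage call of DDX17 (edgeR Simes adjusted p 0.00109) was kept without each library in turn, at 0.00266 to 0.029.

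The same list held the Argonaute and GW182 genes outside the 10. AGO4 was at 39.7 ± 1.39 CPM in control cells and 45.2 ± 5.06 CPM after knock-down (SD, n = 3 each), with a log2 fold change of 0.19 (edgeR adjusted p 0.588). TNRC6B and TNRC6C, the paralogs of TNRC6A, had log2 fold changes of -0.29 ± 0.17 and 0.00 ± 0.12 (SE, edgeR adjusted p 0.564 and 0.999). The estimates of the TNRC6 genes did not share a direction, and none passed the threshold, so their directions are not settled.

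Genes that carry microRNA hairpins in their transcripts were examined as a list of 36, of which 35 could be tested. CTDSP2, a phosphatase gene whose intron holds a miR-26 hairpin, was the 1 gene called (0.112% of all genes were called lower). It was at 2282, 1887 and 2061 CPM in control cells and 958, 851 and 955 CPM in siDDX5 cells, with no overlap, and its fall was already known when the list was made. Its log2 fold change was -1.17 ± 0.12 (SE, adjusted p in edgeR 0.0106), and the adjusted p was 0.0953, 0.0653 and 0.0514 without control replicate 1, siDDX5 replicate 1 and siDDX5 replicate 3. With the replicate block ARRB1, which encodes beta-arrestin 1, was called as well, where 1.45% of all genes were called lower. It was at 248, 228 and 176 CPM in control cells and 156, 140 and 96.4 CPM in siDDX5 cells (log2 fold change -0.73 ± 0.19, SE, adjusted p in edgeR 0.183, or 0.0067 when blocked). The median log2 fold change of the 35 genes was -0.01, beside 0.00 over all genes.

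For the 3 members with the largest fold changes, the genes with the most similar pattern over the 6 libraries were sought among 10993 genes, by the root mean square difference of centred log2 CPM. For TNRC6A they were PHLPP2 (0.0343), MIER3 (0.0439) and ZNF268 (0.0497). For PRKRA they were COPS3 (0.0317), BIRC5 (0.0327) and IER3IP1 (0.0335), and for DROSHA they were DEC1 (0.0243), DNAJC13 (0.0262) and RTTN (0.0269). These 9 genes were picked for their pattern, so fold changes near those of the members follow from the choice. Their edgeR adjusted p values were 0.365 to 0.723, and how close a match chance would give was not tested.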

How the data were processed

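Messenger RNA of 3 control and 3 siDDX5 Rh30 cultures was sequenced from TruSeq Stranded mRNA libraries, per the labels. Each deposited table gives, per the file headers, an estimated count and a TPM for each of 188753 transcripts. Both were made by the authors, and the submitters' processing notes name kallisto 0.46.0, cutadapt 1.11 and GRCh38. Estimated counts are as deposited, with no normalization, and TPM is the authors' length-scaled value. The annotation release and the strand setting of the quantifier are not given in the sources used here.

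Transcripts were joined to GENCODE 29 genes (GRCh38) by identifier (169797), gene symbol (15291) or table position (890), and 2775 were left out, which kept 99.59% to 99.63% of the counts. All transcripts of the 10 genes were joined by identifier. Counts were summed per gene, rounded, filtered with filterByExpr, scaled by TMM and tested with the quasi-likelihood test of edgeR 4.0.16 under R 4.3.3. The model held the group alone, with Benjamini-Hochberg adjustment over all genes (threshold 0.05). The SE of an edgeR fold change was derived from the test, as the size of the log2 fold change divided by the square root of its F statistic. Transcripts were tested likewise, and transcript usage with diffSpliceDGE and a Simes test per gene. How uncertain the division of reads among transcripts was is not part of either test. A count of 3 corresponds to 0.115 to 0.165 CPM. The steps were tested on simulated data.

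Over 15223 genes, the deviations of same-numbered libraries correlated at 0.21, 0.27 and 0.58. The replicate number, read from the sample titles, was therefore added as a block in an alternative fit. The reported model left it out, so its standard errors and p-values take no account of this correlation. Whether a shared number marks a shared batch was not tested. The block lowered the biological coefficient of variation from 15.7% to 10.2%.

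The members and gene lists were chosen with earlier results of these data known. The text names all members, DDX5, DDX17, pathway and host genes called in either fit or, where none was, the 6 pathway genes with the smallest p, the most abundant transcripts and the most similar genes. AGO4, TNRC6B, TNRC6C and the genes of the closing section were named after their values had been seen. Alternatives were DESeq2 1.42.0, limma 3.58.1 on log2(TPM + 1) and log2(TPM + 0.1), other filters and size factors, length-scaled TPM counts, the block with a GC correction, and leaving out each library. Protein-coding transcripts alone, the identifier join alone, the DROSHA exon share and the joining of DROSHA-201 with DROSHA-212 were added after the data had been seen.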

Additional observations from a re-analysis of the deposited data

How the results depend on the processing

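The 10 genes stayed uncalled in the reported fit and in all 18 alternatives at gene level (lowest adjusted p 0.121), and 169 of 180 fold changes kept their sign. The others were AGO1 at -0.12 with length-scaled TPM counts, -0.16 and -0.17 with limma-trend (pseudocount 1 and 0.1) and -0.01 without siDDX5 replicate 1, AGO3 at -0.04 in both limma-trend fits, and the fits without one library of DGCR8 (-0.18 to 0.06), DICER1 (-0.17 to 0.13, above 0 in 3 of them) and TARBP2 (-0.03 to 0.25). The members' median, 0.07, was -0.08 in both limma-trend fits. The number of genes called, 25, was 323 with DESeq2, 136 with no filter, 2 with length-scaled TPM counts, 1 in each limma-trend fit, 395 with the replicate block, 640 with the replicate block and GC correction, 38 with protein-coding transcripts alone, 238 with these and the block, and 0 to 15 without one library. With protein-coding transcripts alone, without and with the block, 1 pathway gene was called. The host genes called, 1, were 2 in each of DESeq2, the unfiltered test, the replicate block, the same with GC correction, and protein-coding transcripts with the block, 0 with length-scaled TPM counts and both limma-trend fits, and 0 to 1 without one library. Member transcripts called were 1 with DESeq2 in place of 0. Members called for usage, 1, were 3 with no filter (DROSHA, AGO2 and TNRC6A), 0 with a mean of at least 50 counts, 0 with DROSHA-201 and DROSHA-212 as 1 transcript, without and with the block, and 0 to 2 without one library. AGO2 was called without control replicate 2 and DGCR8, beside DROSHA, without control replicate 3. The log2 fold change of DDX5 was -1.37 with length-scaled TPM counts and -1.44 in both limma-trend fits, each past the threshold no longer, and -1.54 to -1.30 without one library. The median difference in the share on transcripts not annotated protein coding, -0.82 percentage points, was -4.34 by TPM. The replicate block changed the call of ARRB1 and of no other gene named here for its list. The causes of these changes were not tested.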

Other observations

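Within the pathway list, the 8 genes of Argonaute loading had log2 fold changes that were all above 0, from 0.11 (TSNAX) to 0.29 (PTGES3), with a median of 0.20, beside 0.00 over all genes. Over all 15223 genes tested, 7557 were above 0. These 8 genes were singled out after their values had been seen. The medians of the other groups in that list were 0.06 for nuclear processing (17 genes), -0.05 for precursor tailing, editing and decay (10), 0.00 for effectors (15) and -0.16 for microRNA turnover (5, of which 4 were below 0), and the 1 export gene was at 0.25. The 8 loading genes are AGO4, the chaperones HSP90AA1, HSP90AB1 and HSPA8, the co-chaperones FKBP4 and PTGES3, and TSN and TSNAX. TSN and TSNAX form a nuclease that removes cleaved passenger strands. None of the 8 passed the threshold in edgeR without or with the block, where the lowest adjusted p was 0.425 and 0.142, and 1 and 2 of the 8 (12.5% and 25%) had an unadjusted p under 0.05, beside 11.4% and 20.5% of all genes. PTGES3, also called p23, was at 356, 380 and 407 CPM in control cells and 393, 497 and 508 CPM in siDDX5 cells, with overlap between the groups. The groups did not overlap for 1 of the 8, TSN, beside 18.0% of all genes.

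HSP90AA1 was called for usage (edgeR Simes adjusted p 0.00942, 0.0485 with the block), but the deciding transcript held 0.211% ± 0.152 and 0.0324% ± 0.0152 of its counts (SD, n = 3 each), and the call was lost without control replicate 2 or 3 and without siDDX5 replicate 1 or 3 (0.0667 to 0.439). Among the host genes HUWE1 was called for usage (edgeR Simes adjusted p 9.08e-09), where 1.59% of all genes tested were called. Its transcript HUWE1-201, annotated as a processed transcript, had 71.7, 160 and 569 estimated counts in control cells. That was a small part of the gene's counts, 0.437%, 1.1% and 3.5%. It was listed at 0 in all 3 siDDX5 libraries.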
